A study of Mus musculus with 4 samples.

Results

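The expression data described here set mouse embryonic stem (ES) cells that had lost 1 of their 2 copies of BAF250 against wild type cells, over the genes with a well measured signal. The genes were chosen by their signal level. A probe set, the group of short probes that reads 1 transcript on the array, was kept when it was annotated to 1 gene and its deposited signal averaged 30 or more over the 4 arrays of the study. This kept 1354 of the 34958 single-gene probe sets, which stand for 985 of 18194 genes. The threshold fell between Ddx39a, with a mean signal of 30.07, and Me1, with 29.99 just below it, whose log2 differences were -0.11 and -0.84. The 4 arrays held RNA from a wild type culture, a heterozygous culture and 2 homozygous knock-out lines, ko1 and ko2. All were feeder-free cultures on gelatin, kept in medium with serum and LIF, the cytokine that holds mouse ES cells undifferentiated. The labels give neither the letter of the BAF250 gene, nor the altered part of it, nor the parental line, and no treatment set the groups apart. The comparison was therefore 1 array against 1. No difference between them had a replicate check, and precision is limited by the count of arrays.

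BAF250 is the large ARID-domain subunit of the BAF complex, the form of the SWI/SNF chromatin remodeller that moves nucleosomes with the energy of ATP. It is encoded by Arid1a (BAF250a) or Arid1b (BAF250b), and a complex carries either protein. In ES cells the BAF complex occupies many enhancers bound by the pluripotency factors and is known for its part in keeping those cells undifferentiated.

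Both arrays were brought to a common median of the kept probe sets before any comparison, because the deposited medians were 74.9 in wild type and 44.8 in heterozygous. The background of each array, taken as the brightest of 27 bacterial control probe sets that receive no spiked RNA, was 5.03 in wild type and 7.68 in heterozygous on the scaled signal. Of the 1354 kept probe sets, 20 in wild type and 22 in heterozygous lay at or below it. The ratio of 3' to 5' actin control probe sets, a sign of RNA quality, was 1.30 in wild type, 2.86 in heterozygous, 5.01 in ko1 and 2.61 in ko2. That of the Gapdh controls was 1.10, 1.27, 2.57 and 1.21 in the same order. The part of these ratios in the results was not tested. All 9 ES cell markers examined were above background on each array, and their summed scaled signals were 2166 in wild type and 2151 in heterozygous, against 684 in ko1 and 1023 in ko2. Dppa5a supplied most of each sum, at 1554, 1707, 599 and 857 in the same order, so the sums say little of the other markers. Apart from Dppa5a and Tdgf1, each marker read lower in heterozygous than in wild type. Nanog was at 29.9 and 12.9, Esrrb at 60.8 and 32.0 and Utf1 at 205 and 129, while Zfp42 was nearly equal. Of 7 annotated fibroblast markers, 2 were above background in wild type and 0 in heterozygous, with sums of 20.0 and 19.8. The 8 markers of extraembryonic endoderm summed to 33.7 and 40.6 in these arrays, against 1832 and 1282 in ko1 and ko2.

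The first check was BAF250 itself. The kept probe set of Arid1a had scaled signals of 72.3 in wild type, 56.0 in heterozygous, 6.40 in ko1 and 4.22 in ko2. Heterozygous cells thus read 1.29-fold below wild type, a log2 difference of -0.37, far from the homozygous lines. The dimmer Arid1a probe set, not among those kept, read 28.5, 26.8, 15.8 and 1.25 in the same order (-0.09 for heterozygous minus wild type). The Arid1b probe set was at 4.08 and 3.36, below background in both. No source used here places either Arid1a probe set inside or outside the altered part of the gene, and a reading from outside it would not check the label.

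Most well expressed genes read alike in heterozygous and wild type cells, and no gene list with 5 or more measured members had a median past 2-fold. Of the 985 genes, each represented by its brightest kept probe set, 30 (3.05%) were at least 2-fold higher in heterozygous and 37 (3.76%) at least 2-fold lower, 67 (6.8%) in all. Over the 1354 probe sets the counts were 47 (3.47%) higher and 50 (3.69%) lower, 97 (7.16%) in all. The 2 homozygous lines differed from each other by 2-fold in 108 of the same genes (11%) and 168 of the same probe sets (12.4%). The middle 90% of log2 differences ran from -0.91 to 0.81 for heterozygous minus wild type (SD 0.58) and from -1.27 to 0.91 for ko1 minus ko2 (SD 0.69). The spread between the single arrays of different genotype was therefore no wider than that between the lines of the same genotype. Those lines also differed in the 3' to 5' actin ratio, 5.01 in ko1 and 2.61 in ko2. The part of RNA quality in their spread was not tested. A limma fit with a mean per genotype, in which the difference between the homozygous lines supplied the only residual degree of freedom, called 0 of 1354 probe sets (0%) at an adjusted p below 0.05. At an unadjusted p below 0.05 it held 28. The smallest p belonged to Tuba1a, an alpha-tubulin gene (2.55 ± 0.42 (SE), limma adjusted p = 0.797). The labels do not say whether ko1 and ko2 came from separate clones, so this spread may be partly technical. Because of that fit, the values below are given as higher or lower readings of 1 array against another.

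**Figure D1:**
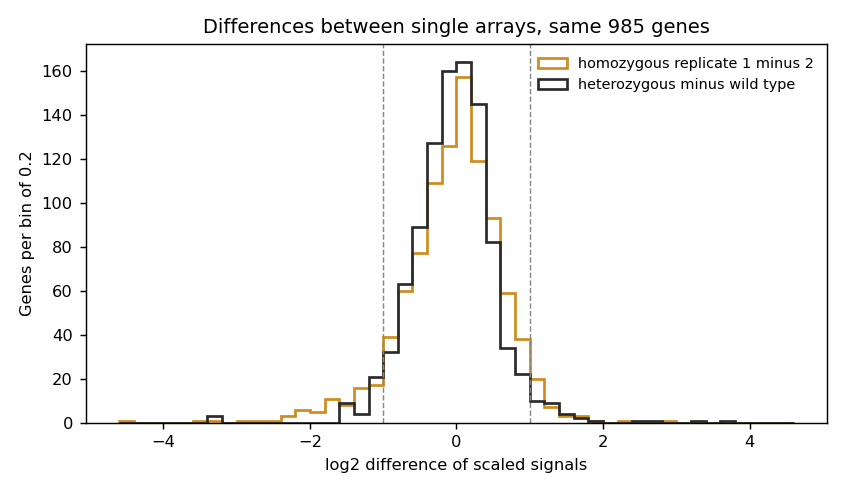
Histogram of log2 differences of scaled signals over the 985 genes (x axis, bins of 0.2; y axis, genes per bin) for heterozygous minus wild type and for homozygous line ko1 minus ko2. Dashed lines mark 2-fold; the heterozygous distribution (SD 0.58) is narrower than that of the homozygous pair (SD 0.69).

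The genes past 2-fold did not all set heterozygous apart from the other 3 arrays. Among the 30 higher genes heterozygous was the highest of the 4 arrays in 15 and wild type the lowest in 22. Among the 37 lower genes heterozygous was the lowest in 25 and wild type the highest in 26. Being chosen for the difference between these arrays favours such positions, so the counts only describe the genes. The differences were also more frequent at low signal. The 87 genes that entered only through the homozygous arrays, with a mean below 30 over wild type and heterozygous, held 16 of the 67 differences (18.4% of those genes), while the other 898 held 51 (5.68%). Of the 30 higher genes 24 were above background on both arrays, as were 30 of the 37 lower ones. A fold against an array at background is a lower bound, written "at least", and none is given where both arrays lay at or below it.

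**Figure D2:**
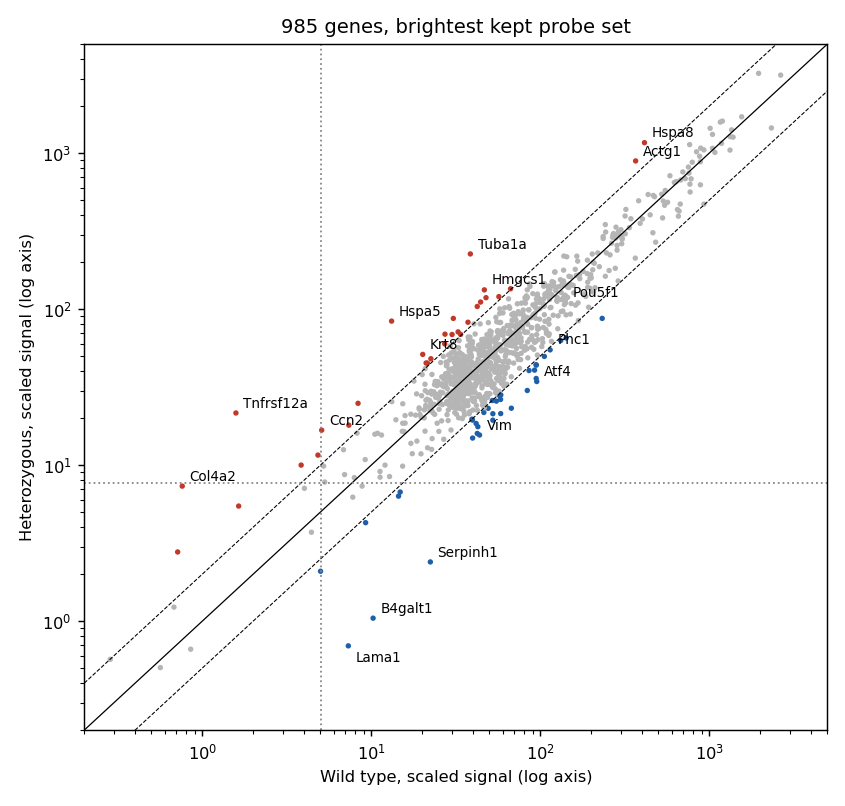
Scaled signal of each of 985 genes in wild type (x axis, log scale) and heterozygous cells (y axis, log scale), 1 array each. The solid line marks equal signal, dashed lines 2-fold and dotted lines the background of each array (5.03 and 7.68); 30 red points lie above the 2-fold band and 37 blue points below it, several of them at or under background.

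Different probe sets of a gene read the same RNA, which allows a check that a single array otherwise lacks. Among the 248 genes with 2 or more kept probe sets, all probe sets lay on the same side of 0 in 139 (56%), 65 of them above and 74 below. The brightest and next brightest lay on the same side in 158 (63.7%). Their log2 differences had a Pearson r of 0.24 and a Spearman rho of 0.34 across these genes, which are not independent replicates and share both arrays. Larger readings were shared more often: of 50 genes whose brightest probe set passed 1.5-fold, the next lay on the same side in 36 (72%), against 122 of 198 (61.6%) within 1.5-fold. The pair of homozygous lines gave similar figures, with all probe sets on the same side in 130 (52.4%) and r of 0.22. Probe sets of the same gene differed by more than 1 log2 unit in 38 genes. The widest gap was in Serpinh1, a collagen chaperone, at -3.22 on its brightest probe set, where heterozygous was below background, and 2.40 on another, where wild type was. Serpinh1's brightest probe set, with a deposited mean of 17.9 over wild type and heterozygous, was kept only through the homozygous lines.

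**Figure D3:**
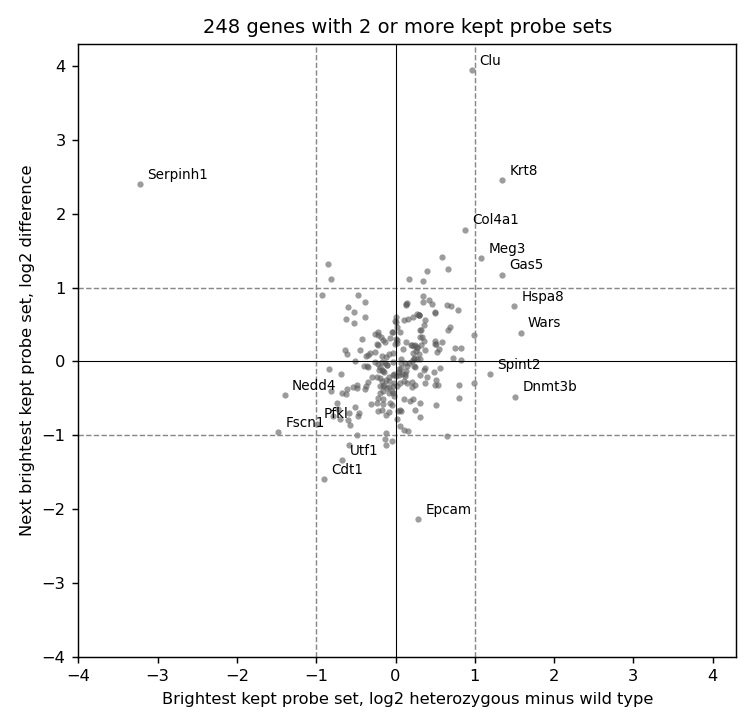
Log2 heterozygous minus wild type on the brightest (x axis) and next brightest (y axis) kept probe set of each of 248 genes. Dashed lines mark 2-fold; 158 genes lie in the quadrants of equal sign, and Krt8, Gas5 and Meg3 are past 2-fold on all their kept probe sets.

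Only 3 of these 248 genes (1.21%) were at least 2-fold higher on every kept probe set, Krt8, Gas5 and Meg3, and 0 (0%) were at least 2-fold lower. Every kept probe set of these 3 genes has a name ending in _x_at or _a_at. The first ending marks probes shared with related sequences. The setting without such probe sets, given at the end, leaves none of theirs and cannot check these 3 genes. Krt8 encodes a keratin of simple epithelia, found in trophoblast and primitive endoderm and scarce in undifferentiated ES cells. Its brightest probe set read 20.1 in wild type, 51.2 in heterozygous, 171 in ko1 and 106 in ko2, and the others 9.21, 50.4, 70.1 and 66.1, and 1.79, 21.1, 53.5 and 61.1. Heterozygous was 2.54-fold, 5.47-fold and at least 4.20-fold above wild type on the 3 of them, and below both homozygous lines on each. Apart from the brightest, the Krt8 probe sets had deposited means below 30 over wild type and heterozygous. They were kept only through the homozygous arrays, where they are bright. Krt18, the obligate filament partner of Krt8, had 1 kept probe set, at 27.2, 59.9, 230 and 275, which put heterozygous 2.20-fold above wild type. For this pair the heterozygous reading lay between wild type and the homozygous lines. In a bulk culture, more cells of a type and more RNA per cell cannot be told apart. Of 4 other trophoblast markers 1 was above background in wild type and 0 in heterozygous, with sums of 12.6 and 10.9, and Cdx2 and Elf5 were below it in both.

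Gas5 and Meg3 are long non-coding RNAs. Gas5, a host of small nucleolar RNAs whose transcript is stabilised when translation slows, read 27.3 in wild type, 69.0 in heterozygous, 38.2 in ko1 and 80.7 in ko2 on its brightest probe set, and 24.1, 54.4, 18.7 and 35.2 on the other. The log2 differences were 1.34 and 1.18, but heterozygous was not apart from ko2 on the first. Meg3, the maternally expressed RNA of an imprinted cluster with Dlk1, read 56.8, 120, 9.46 and 11.9 on 1 kept probe set and 33.1, 87.2, 1.31 and 15.3 on the other, log2 differences of 1.08 and 1.40. Here heterozygous stood above wild type and the homozygous lines below it, so the genotypes did not fall in order of gene dose. Of the 9 other Meg3 probe sets, not kept, those above background on both arrays gave 1.49 (23.0 and 64.6), 0.37 (35.0 and 45.2), 0.72 (8.90 and 14.7) and 0.16 (7.81 and 8.74). A further pair, below background in wild type, read at least 2.03-fold and 2.07-fold higher, 1, at 11.9 and 3.87, at least 1.54-fold lower, and 2 were below background in both.

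When 1.5-fold was asked of every kept probe set, a size chosen after the values were seen, 9 genes were higher and 7 lower. In 2 of the 9, Clu and Col4a1, a kept probe set was below background on both arrays, where no fold can be read, which leaves 7. Beside the 3 above, these were the galectin gene Lgals1, Rbbp7, a histone-binding subunit of several chromatin complexes, the splicing factor gene Srsf2, and Tsc22d1. Lgals1 read 38.6 in wild type and 60.5 in heterozygous (0.65) and 32.2 and 54.7 on its other kept probe set (0.77). The lower ones were Utf1, Fscn1, Pfkl, Cdt1, Parp1, Aprt and Chchd10. Fscn1, the actin-bundling protein fascin, read 83.7 in wild type, 30.1 in heterozygous, 49.9 in ko1 and 49.3 in ko2 on the brightest probe set (-1.48) and 43.8, 22.5, 44.4 and 27.5 on the other (-0.96). Both probe sets were lowest in heterozygous. Asking 2-fold of every probe set above background in either array, kept or not, with lower signals set at background, left Krt8 and Tnfrsf12a higher and 0 genes lower among 574. Tnfrsf12a, a TNF-family receptor, was at 1.58 in wild type, below background, 21.6 in heterozygous, 58.5 in ko1 and 94.0 in ko2. Heterozygous was at least 4.29-fold higher than wild type there, and at least 3.39-fold higher on its other probe set, which was not kept. With a deposited mean of 10.9 over wild type and heterozygous, Tnfrsf12a was kept only through the homozygous arrays, where it is bright.

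Genes of the pluripotency network were measured in 15 of 33 listed cases, with 0 higher by 2-fold, 2 lower and a median log2 difference of -0.17, against -0.02 over all genes. Members above 0 numbered 7 of 15, close to the 48.4% over all genes. Pou5f1, which encodes OCT4, read 141 in wild type, 110 in heterozygous, 10.7 in ko1 and 49.8 in ko2, so heterozygous was nearer to wild type. Dppa5a, an RNA-binding protein of pluripotent cells, read 1554, 1707, 599 and 857. Tdgf1, the Nodal co-receptor Cripto, read 53.2, 63.5, 6.64 and 21.4. The differences of all 3 lay within the middle 90% of all genes. A subset read lower. Phc1, a subunit of polycomb complex 1, was at 114, 54.7, 15.04 and 22.2 (-1.06), and Dnmt3l, a cofactor of the de novo DNA methyltransferases, at 94.6, 43.8, 71.5 and 63.2 (-1.11). Esrrb and Klf2, regulators of the naive state, were at 60.8 and 32.0 (-0.93) and at 96.1 and 50.7 (-0.92). A dimmer Esrrb probe set read 17.4 in wild type, 15.8 in heterozygous, 15.6 in ko1 and 21.4 in ko2 (-0.14). Another, below background in heterozygous, was at least 1.14-fold lower. Utf1, a chromatin protein of undifferentiated cells, gave -0.67 and -1.34 on its kept probe sets. Nanog, whose brightest probe set missed the signal threshold, read 29.9 in wild type, 12.9 in heterozygous, 6.88 in ko1 and 9.33 in ko2. At any mean signal, 3849 genes had a brightest probe set above 7.68, the higher of both backgrounds, on both arrays, a filter chosen after the values were seen. Of these 47.8% were above 0, 2.52% 2-fold higher and 3.3% 2-fold lower, with a median of -0.03. The 29 listed pluripotency genes among them held 12 above 0, 0 higher and 4 lower by 2-fold, with a median of -0.23. On the kept probe sets of Phc1, Esrrb, Klf2 and Utf1 the homozygous lines were lower still, while in Dnmt3l they lay between. Dnmt3b, a methyltransferase that rises towards the primed state, read 30.6 in wild type and 87.1 in heterozygous (1.51), but 49.0 and 35.2 on its other kept probe set (-0.48). Without ko2 that other one became its brightest, at -0.44.

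Of 26 listed SWI/SNF genes 4 were kept, Arid1a among them, and each lay below 0. Smarca4, the ATPase BRG1, read 61.9 in wild type, 40.7 in heterozygous, 22.7 in ko1 and 40.2 in ko2 (-0.60), and -1.44 on a dimmer probe set. Smarcb1 and Smarcc1, core subunits, stood at -0.32 and -0.25. On the kept probe sets each lies within the middle 90% of all genes. At any mean signal, of 12 subunit genes above the common floor of 7.68 on both arrays 3 were above 0 and 9 below, against 47.8% above 0 over all genes above it.

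The highest reading relative to wild type, among brightest kept probe sets above background on both arrays, was that of Hspa5, the endoplasmic reticulum chaperone BiP. The promoters of Hspa5, of the sterol gene Hmgcs1 and of the asparagine synthetase gene Asns are shown, because each carries the textbook element of the pathway it reports on. They were chosen after the values were seen. Each is the 250 bases before the RefSeq start on build GRCm38.p6, written 5' to 3' on the gene's strand; both strands were searched, and capitals mark the match. In Hspa5 (chr2:34771840-34772089, plus strand) it is the endoplasmic reticulum stress element, CCAAT and CCACG with 9 bases of any kind between them, which starts 65 bases before the start and occurs in 37 of 32851 promoters of this length (0.113%). In Hmgcs1 (chr13:119690101-119690350, plus strand) it is the sterol element TCACCCCAN at 137 bases, found in 439 promoters (1.34%). In Asns (chr6:7693210-7693459, minus strand) it is the composite element TGATGNAA, bound by ATF4, at 23 bases, found in 1134 (3.45%). A match describes the letters and shows no binding.
Hspa5: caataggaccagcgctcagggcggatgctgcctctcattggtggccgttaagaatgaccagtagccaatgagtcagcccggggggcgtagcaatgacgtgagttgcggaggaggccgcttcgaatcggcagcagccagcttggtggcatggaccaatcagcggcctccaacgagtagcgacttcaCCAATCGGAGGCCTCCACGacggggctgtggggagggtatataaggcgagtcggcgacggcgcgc
Hmgcs1: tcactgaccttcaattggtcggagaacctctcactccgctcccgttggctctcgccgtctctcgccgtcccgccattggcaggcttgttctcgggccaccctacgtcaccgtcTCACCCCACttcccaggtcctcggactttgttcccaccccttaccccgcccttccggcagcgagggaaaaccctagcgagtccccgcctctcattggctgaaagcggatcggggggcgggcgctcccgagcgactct
Asns: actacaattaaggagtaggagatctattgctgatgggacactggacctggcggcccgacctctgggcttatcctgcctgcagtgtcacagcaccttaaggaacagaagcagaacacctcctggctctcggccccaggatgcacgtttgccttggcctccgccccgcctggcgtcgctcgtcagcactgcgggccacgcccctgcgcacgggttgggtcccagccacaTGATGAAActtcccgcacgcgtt

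Among chaperones, Hspa5 read 13.2 in wild type, 83.7 in heterozygous, 45.4 in ko1 and 80.3 in ko2, 6.35-fold higher in heterozygous than in wild type. Wild type was the low array, and heterozygous lay beside ko2. Its dimmer probe sets gave 1.00 (7.37 and 14.7) and 0.42 (24.8 and 33.2), the same sign with a smaller size. The 12 genes of endoplasmic reticulum folding and secretion did not share it as a list. Their median was 0.01, with 6 above 0 and Hspa5 as the only member past 2-fold. Canx stood at 0.65, Hyou1 at 0.59, Calr at 0.02, Pdia3 at -0.33 and Ssr2 at -0.63. A dimmer Hyou1 probe set gave -0.59 (12.1 and 8.01). Hspa8, the constitutive cytosolic HSC70, read 413, 1165, 415 and 490 on its brightest probe set (2.82-fold), where heterozygous stood apart from the other 3 arrays. Its other kept probe sets gave 0.75 and 0.21. The heat shock list had 8 of 10 members above 0 (48.4% over all genes), a median of 0.27, and heterozygous as the highest of the 4 arrays in 8 of 10 (25.8% over all genes). Dnaja1, a co-chaperone of HSC70, was at 37.6 and 64.3 (0.77), and Hsp90aa1 at 223 and 187 (-0.26).

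Sterol genes mostly read higher. Hmgcs1, the synthase that makes HMG-CoA, the precursor of mevalonate, read 46.6 in wild type, 133 in heterozygous, 42.3 in ko1 and 73.0 in ko2. Heterozygous was 2.85-fold above wild type. The 3 dimmer Hmgcs1 probe sets above background gave 0.71, 0.88 and 1.54, the last with wild type at 6.97, below the common floor of 7.68. Fdps, farnesyl diphosphate synthase, read 32.6, 71.4, 40.9 and 48.9 (1.13). In both, heterozygous was the highest of the 4 arrays. These were the only 2 of 26 listed cholesterol genes bright enough to be kept, so the list was also read at any mean signal above the common floor of 7.68 on both arrays. Of 8 such genes 7 lay above 0, 3 were at least 2-fold higher and 0 lower, with a median of 0.41, against 47.8%, 2.52% and a median of -0.03 over the 3849 genes chosen the same way. The 3 were Hmgcs1, Fdps and Sqle, squalene epoxidase, which read 11.6 in wild type, 29.2 in heterozygous, 5.88 in ko1 and 10.2 in ko2. All 3 were highest in heterozygous. Another 6, Cyp51, Mvd, Nsdhl, Pmvk, Stard4 and Tm7sf2, were above their own background on both arrays but below the floor in wild type. A gene in that range has to read higher to be admitted, so these were not counted. Srebf2, which encodes the regulator of these genes, read 23.0 and 27.9 (0.28), and Lss, lanosterol synthase, 9.33 and 7.91 (-0.24).

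Atf4, the effector of the integrated stress response, and Asns, a gene it activates, read in opposite directions. Atf4 was at 95.2 in wild type, 34.3 in heterozygous, 124 in ko1 and 109 in ko2 (-1.47), the lowest in heterozygous by a wide margin. A dimmer Atf4 probe set read 14.96 in wild type and 5.39 in heterozygous, below background, at least 1.95-fold lower. Asns was at 44.3, 111, 47.9 and 62.0 (1.32), the highest in heterozygous, as it was on a dimmer probe set (0.88). The other kept members of that list, Slc3a2 and Eif4ebp1, stood at -0.41 and -0.29, and among the 9 aminoacyl-tRNA synthetase genes kept the median was -0.04. Of these only Wars was past 2-fold, at 1.58 on its brightest probe set and 0.39 on the next. That brightest one had a deposited mean of 17.5 over wild type and heterozygous and was kept only through the homozygous lines.

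**Figure D4:**
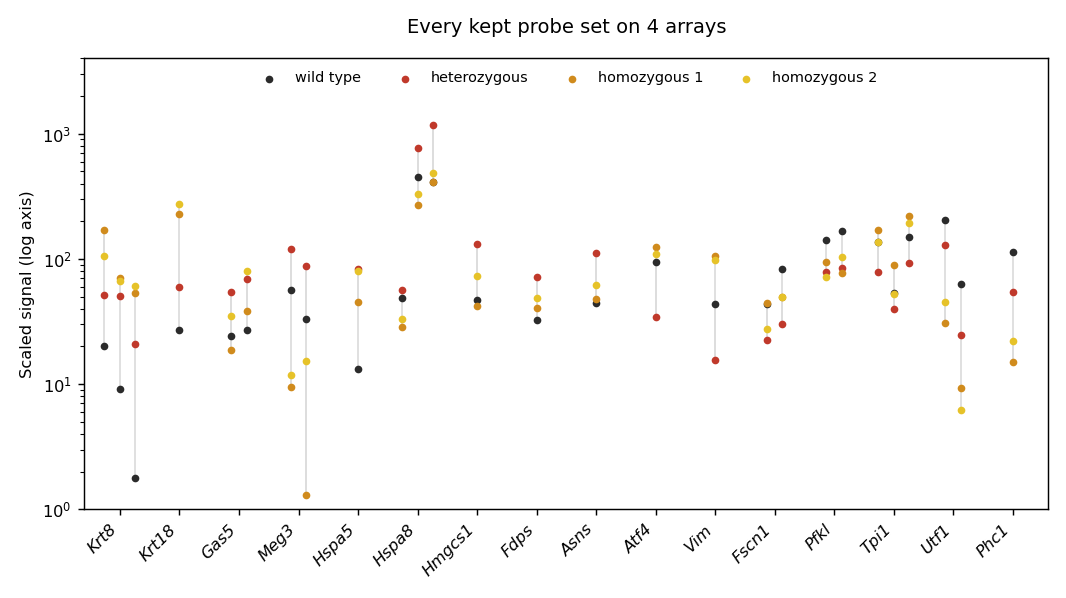
Scaled signal (y axis, log scale) of every kept probe set of 16 genes on the 4 arrays; each grey line joins the readings of 1 probe set. Krt8 and Krt18 lie between wild type and the homozygous lines, heterozygous is the highest array for Hmgcs1, Fdps and Asns, and it is the lowest for Atf4, Vim and Fscn1.

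Genes of glycolysis mostly read lower. The 15 measured had a median of -0.45, with 4 above 0 (48.4% over all genes), 0 at least 2-fold higher and 1 lower, Slc16a3, the lactate exporter MCT4, at 58.2 in wild type, 26.3 in heterozygous, 9.44 in ko1 and 25.2 in ko2. Taken over all 30 kept probe sets of these genes the median was -0.26, against -0.03 over all 1354, so the size depended on which probe sets were read. Pfkl, the liver form of phosphofructokinase, read 168, 84.4, 77.2 and 103 on its brightest probe set (-0.99) and 142, 78.9, 94.2 and 71.2 on the other (-0.84). Tpi1, triose phosphate isomerase, was lower on its 3 probe sets, at -0.42 to -0.78. Hk2, Pkm and Ldha, which encode hexokinase 2, pyruvate kinase and lactate dehydrogenase A, stood at -0.64, -0.46 and -0.45. Of the 8 members with several kept probe sets, 4 were below 0 on all of them and 2 above on all. Above 0 were Aldoa, an aldolase, at 0.04, the glucose transporter genes Slc2a1 and Slc2a3, at 0.02 and 0.37, and Pgk1, at 0.57 on its brightest probe set but as low as -0.25 on another. Wild type was the highest of the 4 arrays in 9 of the 15 genes (31.2% over all genes) and heterozygous the lowest in 2 (20.2% over all genes).

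The oxidative and mitochondrial lists also had medians below that of all genes. Of 8 kept genes of glutathione and oxidative stress 1 was above 0 (48.4% over all genes), with a median of -0.28. The peroxiredoxin gene Prdx2 was at 102 and 57.5 (-0.83). A dimmer Prdx2 probe set went the other way, at 1.57 in wild type, below background, and 8.40 in heterozygous, at least 1.67-fold higher. The superoxide dismutase gene Sod1 was at 648 and 434 (-0.58, and -0.87 on its other probe set). Wild type was the highest array in 5 of the 8 (31.2% over all genes). The 61 genes of the respiratory chain and ATP synthase had a median of -0.10 and 21 above 0 (34.4%, against 48.4% over all genes). Only Atp5o, a stalk subunit of ATP synthase, passed 2-fold, at 106, 49.7, 100 and 93.5, lowest in heterozygous. Over all genes 3.76% were at least 2-fold lower, so 1 of 61 is no excess. The 12 of the mitochondrial ribosome and import had a median of -0.11, with Mrps14 at 39.7 and 14.9 (-1.42). Outside these lists, Grpel1, the nucleotide exchange factor of the import motor, read 58.2 in wild type, 21.4 in heterozygous, 37.4 in ko1 and 37.5 in ko2 (-1.45).

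Lists of the transcription, replication, translation and splicing machinery had medians within 0.3 of the median gene, apart from RNA polymerase II. Subunit genes of the enzyme were kept in 6 cases, with a median of -0.63: Polr2i at 92.4 and 40.6 (-1.19), Polr2a, the catalytic subunit, at 58.4 and 28.2 (-1.05), Polr2f at -0.90, Polr2e at -0.35, Polr2g at -0.06 and Polr2c at 0.23. None had more than 1 kept probe set, and wild type was the highest array in 4 of the 6 (31.2% over all genes). The list's position depended on the genes admitted: its 18 members above the common floor at any mean signal, Mediator included, had a median of -0.20. Of 16 DNA replication genes 4 were above 0 (48.4% over all genes), with a median of -0.18, and 0 passed 2-fold on the brightest probe set. The licensing factor gene Cdt1 read 116, 62.1, 75.8 and 69.9 (-0.91) and 85.7, 28.4, 42.8 and 52.4 (-1.59). It was lowest in heterozygous on both. Wild type was the highest array in 12 of the 16 (31.2% over all genes). Above 0, against 48.4% of all genes, were 22 of 37 cytosolic ribosomal protein genes (median 0.11), 18 of 26 translation factor genes (0.17), 11 of 16 ribosome biogenesis genes (0.20) and 18 of 29 splicing factor genes (0.11). Over all kept probe sets these medians were 0.04, 0.07, 0.11 and 0.20. None of the first 3 groups had a member past 2-fold on its brightest probe set. In splicing Sf3a3 was higher at 21.1 and 45.1 (1.10), Sf3b2 was lower at 42.7 and 17.6 (-1.28) but between -0.79 and 0.17 on its other probe sets above background, and Hnrnpl was lower at 46.3 and 21.7 (-1.09).

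**Figure D5:**
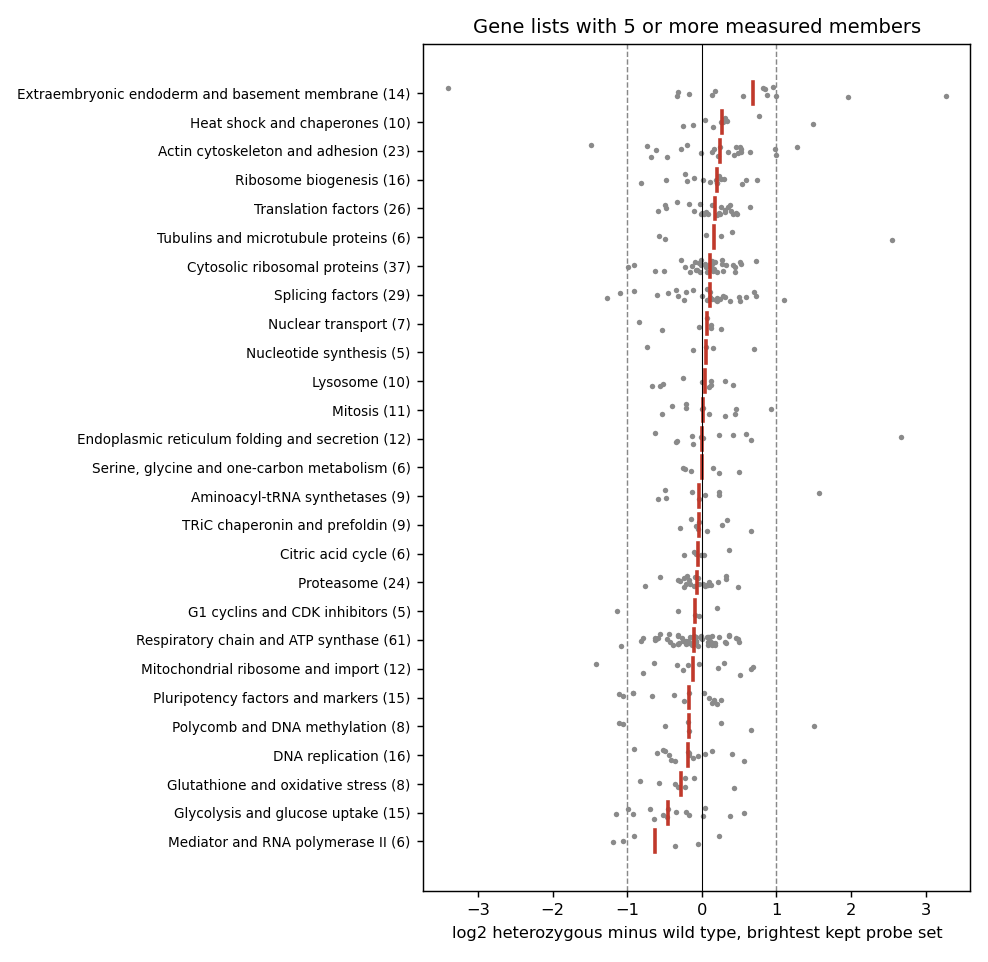
Log2 heterozygous minus wild type of the brightest kept probe set of each gene (grey points, x axis) in the 27 gene lists with 5 or more measured members (y axis, number measured in parentheses). Red bars are list medians and dashed lines mark 2-fold; most medians lie within 0.3 of 0, with glycolysis and RNA polymerase II below and the dim endoderm list above.

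Of 51 lists, 27 had 5 or more measured members, and the medians of 3 lay 0.3 or more from that of all genes, a size chosen after the values were seen: glycolysis and RNA polymerase II below, and extraembryonic endoderm with basement membrane above, at 0.69. The endoderm list cannot be read at its median. Of its 14 genes 11 were kept only through the homozygous lines, where they are bright, and 6 were at or below background in both arrays compared here. Col4a2, a type IV collagen chain, was at 0.760 and 7.33, both below background, against 695 in ko1 and 448 in ko2. Lama1, a laminin chain, was at 7.31 and 0.694, Col4a1 at 6.84 and 12.5, and Gata4, a regulator of endoderm, at 5.30 and 7.78. With signals below background set at background, Lama1 turned from -3.40 to 0.07. These 4 genes, bright in homozygous cells, were thus near or below background in both arrays. Sparc, a matrix protein, was above it, at 60.2 and 67.8 (0.17) on its brightest probe set and 14.7 and 32.0 (1.12) on the other, and Lamc1 at 17.1 and 13.8 (-0.31). The 6 members whose brightest probe set was above the common floor on both arrays had 3 above 0, a median of 0.00 and 0 past 2-fold.

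Cytoskeletal genes split. Vim, the intermediate filament vimentin of mesenchymal and neural cells, read 43.7 in wild type, 15.6 in heterozygous, 106 in ko1 and 98.7 in ko2 (-1.49). A dimmer probe set put heterozygous, below background, at least 2.06-fold lower, and another, at 6.17 and 2.94, gave no fold. Here heterozygous lay below wild type and the homozygous lines above it, the reverse of Meg3. Actg1, cytoplasmic gamma-actin, read 366, 890, 1133 and 1030 (1.28), with heterozygous close to the homozygous lines, while Actb, beta-actin, was lower on its 5 kept probe sets, from -0.17 to -1.31. The lowest Actb value, -1.31, came from the 5' control probe set of the 3' to 5' ratio given above. The control from the middle of the transcript stood at -0.85 and the brightest Actb probe set at -0.69. The range thus partly restates that ratio, and the part of RNA quality in the Actb readings was not tested. Tuba1a read 38.5, 226, 113 and 130, 5.85-fold higher in heterozygous, on 1 kept probe set whose name marks probes shared with related sequences. The other 5 genes of the tubulin and microtubule list lay between -0.58 (Stmn1) and 0.41 (Tubb4b). The actin and adhesion list had 15 of 23 members above 0 (48.4% over all genes) and a median of 0.25. Wild type was the lowest array in 13 of the 23 (20.6% over all genes). Ccn2, a matricellular protein gene, read 5.08, 16.7, 144 and 71.1 (1.72), with heterozygous between wild type and the homozygous lines. Its wild type reading was barely above the background of 5.03 and below the common floor of 7.68. Ccn2 was also kept only through the homozygous lines. Sulf2, a heparan sulphate sulphatase, read 67.3, 23.1, 57.2 and 58.1 (-1.54), but -0.01 and 0.47 on its dimmer probe sets. Ccnd2, cyclin D2, was at 14.8 in wild type, 6.71 in heterozygous, below background, 120 in ko1 and 126 in ko2, at least 1.93-fold lower. The Ccnd2 probe set above background on both arrays read the other way, at 5.06 and 9.75 (0.95), with wild type again barely above background and below the common floor. B4galt1, a galactosyltransferase, read 10.2, 1.04, 75.2 and 45.1, at least 1.33-fold lower in heterozygous. Ccnd2 and B4galt1, with deposited means of 14.2 and 8.18 over wild type and heterozygous, were likewise kept only through the homozygous lines.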

How the data were processed

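RNA from 4 cultures of mouse ES cells was measured on Affymetrix arrays, 1 per culture. The authors deposited linear intensities from MAS5, as the submitters' processing notes name it. No version, scaling target or detection call was found in the sources used here. Gene names came from the platform annotation: of 45101 probe sets, 34958 had 1 gene symbol, 932 several and 9211 none, and the last 2 kinds were left out. Files without a genome build give no coordinates, and those of promoters are from RefSeq on GRCm38.p6.

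Single-gene probe sets with a mean deposited intensity of 30 or more over the 4 arrays were kept, scaled to a common median of 49.7 (factors of 0.664 in wild type, 1.11 in heterozygous, 0.910 in ko1 and 1.18 in ko2) and taken to log2 with no pseudocount. Log2 differences are heterozygous minus wild type. A gene is its kept probe set with the highest mean. The median gene stood at -0.02, against -0.76 as deposited, -0.21 when scaled to all gene probe sets and -0.23 when scaled to spiked controls, so groups are described relative to it. With 1 array a group, 2-fold stood in for a test. The limma 3.58.1 fit in R 4.3.3 had 1 residual and 4.61 total degrees of freedom, with an intensity trend and Benjamini-Hochberg adjustment. On simulated data its median estimates came near the changes put in. That checks the size of the estimates, and not how many true changes the fit would call. Python 3.11.15 with pandas 2.3.3 did the rest.

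The rule for named genes took those past 2-fold on every kept probe set, the 6 largest differences each way among genes with 1, list members past 2-fold (all where 8 or fewer, otherwise the 6 largest) with up to 3 others, and Arid1a and Arid1b. Riken and predicted genes were counted, not named (2 of the 67 past 2-fold). Fscn1, Serpinh1, Nanog, Lgals1, Tsc22d1, Parp1, Chchd10, genes beside the 3 past 1.5-fold, members given to complete a list and sterol genes too dim to be kept were named after their values were seen. The members, gene lists and tests were chosen with earlier results of these data known. Alternatives changed the scaling, the signal filter, the pseudocount, the use of several probe sets and the homozygous lines included; 4 more were added after seeing the data.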

Additional observations from a re-analysis of the deposited data

Results flagged for a closer look

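Probe sets that the comparisons did not use were also counted. Of 268 probe sets with no gene or several genes and a mean signal of 30 or more, 5 (1.87%) were at least 2-fold higher in heterozygous than in wild type and 8 were at least 2-fold lower. That share is below the 3.47% of single-gene probe sets that were 2-fold higher.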

How the results depend on the processing

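The counts of genes past 2-fold, 30 higher and 37 lower (44.8% of them higher), depended on scaling and on the signal filter. They were 5 and 305 (1.61% higher) with signals as deposited. Scaled to all gene probe sets they were 21 and 65 (24.4%), and scaled to spiked controls 20 and 73 (21.5%). They were 125 and 137 at a mean signal of 15, 7 and 5 (58.3%) at 100, and 3564 and 4557 with no filter. With a pseudocount of 5 they were 20 and 23. Without the probe sets named _x_at, _s_at or _a_at they were 22 and 18 (55%). Leaving out a homozygous line gave 28 to 34 higher and 45 to 46 lower. Genes past 2-fold on every kept probe set, 3 higher and 0 lower, became 9 and 7 at 1.5-fold. They were 1 and 1 when wild type and heterozygous alone set the filter. At a mean signal of 15 they were 5 and 3, at 100 there was 1 higher, and with no filter they were 316 and 413. Under each of the scalings to all gene probe sets and to spiked controls they were 1 and 3, and as deposited 0 and 26. Without the probe sets named _x_at, _s_at or _a_at they were 0 and 1. Without a homozygous line they were 2 higher and 0 to 1 lower, 1 without ko1. limma called 2 higher at a mean signal of 100, 1 higher and 2 lower when scaled to all gene probe sets, 2 lower as deposited, 1 lower with no filter, and 0 in its other alternatives; leaving out a homozygous line leaves no residual degree of freedom. Relative to the median gene, the endoderm median of 0.71 was 0.12 after loess centring and 0.20 after quantile normalization. It was 0.16 at a mean signal of 100, 0.14 with no filter and 0.17 with a pseudocount. Without the probe sets named _x_at, _s_at or _a_at it was 0.25. It was 0.21 to 0.87 without a homozygous line, the lower without ko1. The RNA polymerase II median of -0.61 was -0.31 when wild type and heterozygous set the filter, -0.22 at 15, -0.38 with no filter, -0.55 with a pseudocount, and -0.32 without either homozygous line. The glycolysis median of -0.43 was -0.42 without either homozygous line, and, not relative to it, -0.26 over its 30 kept probe sets. Of named genes, 2 changed sign: Dnmt3b to -0.44 without ko2 and Lama1 to 0.072 with the background floor. Beyond the numbers of genes and samples that each setting admits, the cause was not tested. No paired analysis was possible because wild type and heterozygous had 1 array each and the groups share fewer than 2 replicate numbers.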
